A study of Arabidopsis thaliana with 8 samples.

Results

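The comparison of sr45 single-mutant seedlings with wild-type Col0 seedlings of Arabidopsis thaliana used 4 of the 8 RNA-seq libraries in the series, 2 from sr45 and 2 from Col0. Reads were counted per gene, and 4947 of the 9536 loci with values had enough counts to be tested. The loci with values lie on chromosome 1 (8046) and chromosome 2 (1490) only. Those that code for protein are 27.6% of the protein-coding loci in RefSeq. All counts of genes below, in lists too, are limited to these loci and are not genome-wide. The other 4 libraries came from sap18sr45 and asap seedlings, in which further members of the same protein complex are mutated, and they enter only where their levels are given beside those of sr45 and Col0. The sr45 seedlings carried a T-DNA insertion in SR45, and their labels name no other allele or treatment. Col0 is the parental accession. All seedlings were whole, 11 days old, and grown on MS medium at 22 °C with 16 h of light and 8 h of dark, and RNA was taken from 100 mg of them. Only 1 insertion line of SR45 was examined. Nothing in the labels tells whether replicate libraries were grown as independent cultures, and the p-values therefore describe variation among these libraries, which may be technical. In whole seedlings, fewer cells of a type and less RNA per cell cannot be told apart.

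SR45 is an RNA-binding protein with arginine and serine rich stretches. With SAP18 and ACINUS it forms the ASAP complex, which joins the exon junction complex on messenger RNA and takes part in splicing. Plants lacking SR45 are known for altered leaves and petals, late flowering and a stronger response to glucose and abscisic acid. Sugar is a signal in seedlings as well as a fuel. When carbon is short, plants induce genes for sugar uptake, amino acid breakdown and growth arrest, and when it is plentiful they hold these genes down and express ribosomal and biosynthetic genes.

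Levels are given in cRPKM, read counts corrected for the mappable length of the gene and the depth of the library, and changes as the log2 ratio of sr45 to Col0 with its standard error (SE). A gene was called changed when the p-value of edgeR's quasi-likelihood test, adjusted by Benjamini-Hochberg over the 4947 genes, was below 0.05. The sr45 libraries held 1295244 and 2309239 counts, against 4052420 and 2726758 in the Col0 libraries. They were also the more variable pair, with a coefficient of variation between libraries of 10.5% in sr45 and 3.53% in Col0. The most divergent locus was AT2G01021, which took 1.27% of the counts of sr45 library 1 and 0.12% of sr45 library 2, against 0.05% and 0.095% in the Col0 libraries, and was not called.

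The SR45 transcript was lower in both mutant libraries. SR45 lies on chromosome 1 from 5675495 to 5678873 on the minus strand. It had 42 and 56 counts in the sr45 libraries, against 484 and 282 in the Col0 libraries, or 6.62 and 4.99 cRPKM in sr45 and 24.2 and 21.0 cRPKM in Col0. The genotypes did not overlap, and the log2 change was -2.005 ± 0.17 (adjusted p = 1.44e-11), a level 4.01-fold lower in sr45 and still well above 0. Of the loci on either side of SR45, REV7, a polymerase subunit in DNA repair, had a log2 change of -0.92 ± 0.40 that did not pass the test (adjusted p = 0.0727). AT1G16570 had a log2 change of -0.09 ± 0.19 (adjusted p = 0.763). AT1G16630 passed with 1.63 and 1.12 cRPKM in sr45 and 0.68 and 0.41 cRPKM in Col0 (adjusted p = 0.02), a call at low level that was lost in 7 of the 11 other analyses. AT1G16600 had no counts, and AT1G16635 and AT1G16640 had too few for the test.

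In sr45, 917 genes were higher and 946 lower than in Col0. These were 37.7% of the genes tested, 18.5% higher and 19.1% lower, and they form the background for every list below. The lists and their members were chosen with earlier results of these data known. A share apart from the background is therefore not independent evidence. Most changes were small. The median log2 change was 0.61 among the higher genes and -0.60 among the lower ones, and 209 genes were higher and 196 lower by at least 1 on the log2 scale. The 2 libraries of a genotype lay wholly to one side of those of the other in all but 4 of the called genes. Among all genes tested, called or not, both sr45 libraries lay above both Col0 libraries in 1610 and below them in 1711. Such separation was thus also common among genes not called, and it is not separate evidence for a call. With the rule of the study's methods, which asks for a 2-fold difference in each pair of libraries after quantile normalization together with minimum counts and cRPKM, 53 genes were higher and 84 lower, so that 38.7% of the calls were higher, against 49.2% with edgeR.

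**Figure D1:**
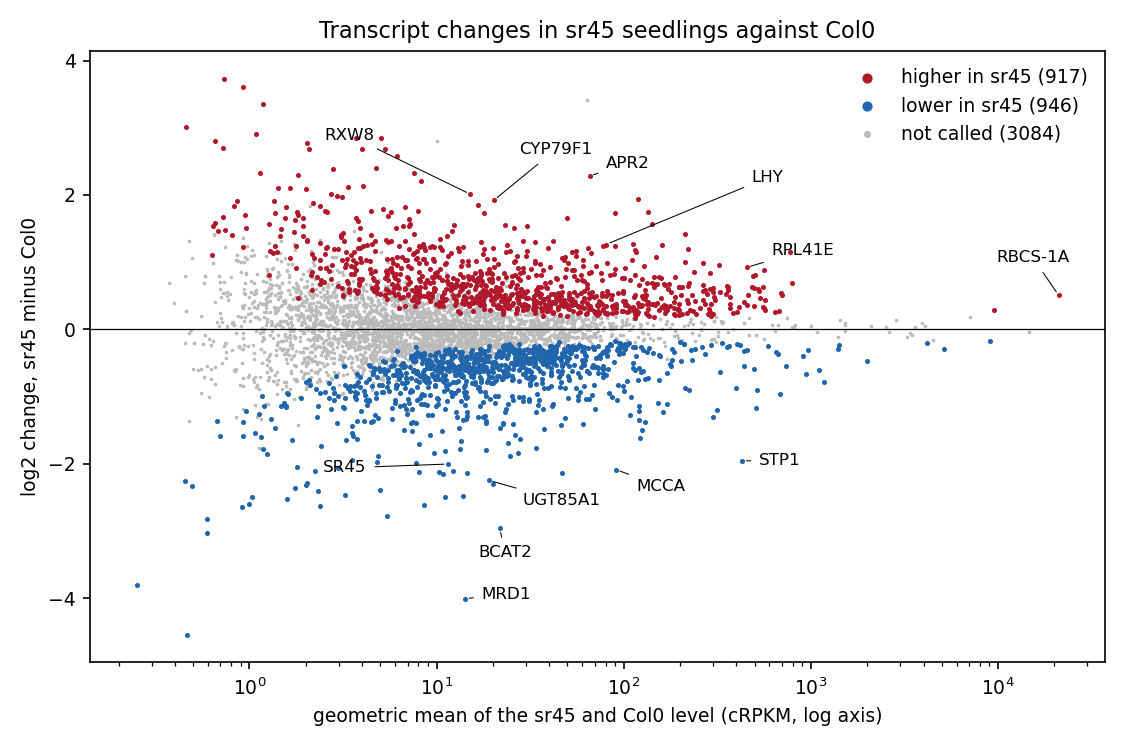
Log2 change (sr45 minus Col0, vertical axis) against the geometric mean of the sr45 and Col0 levels (cRPKM, log axis) for the 4947 genes tested; red points are the 917 genes higher in sr45, blue points the 946 lower and grey points the 3084 not called. Names mark examples of called genes, and falls of about the size of that of SR45, near 10 cRPKM, extend to STP1, above 100 cRPKM.

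The genes of amino acid breakdown fell together in sr45. Of the 9 tested, 7 were lower and none higher, with a median log2 change of -1.57 beside -0.001 over all genes tested. F24J8.4, of the alpha subunit type of the branched-chain keto acid dehydrogenase, commits leucine, isoleucine and valine to breakdown in the mitochondrion. It had 24.8 and 20.2 cRPKM in sr45, against 98.7 and 96.7 cRPKM in Col0, a log2 change of -2.14 ± 0.10 (adjusted p = 1.33e-18). Both sr45 libraries were far below both Col0 libraries, a separation that was also a condition for naming this gene. Further along the same route, ALDH6B2, the methylmalonate semialdehyde dehydrogenase of valine breakdown, had 15.9 and 14.7 cRPKM in sr45, against 45.9 and 44.4 cRPKM in Col0 (log2 change -1.57 ± 0.10, adjusted p = 6.54e-15). THA1, a threonine aldolase that cleaves threonine to glycine, had 5.2 and 4.67 cRPKM in sr45 and 21.7 and 21.2 cRPKM in Col0 (log2 change -2.13 ± 0.17, adjusted p = 3.01e-12). MGL, the methionine gamma-lyase, fell to 4.56 and 6.32 cRPKM in sr45, against 11.7 and 12.8 cRPKM in Col0. The same direction was seen for BCAT2 and MCCA, at -2.96 and -2.09. BCAT1, a second branched-chain aminotransferase, had a smaller log2 change of -0.61 ± 0.20, and its call was lost with DESeq2 (adjusted p = 0.113) and with either Col0 library left out (adjusted p = 0.0535 without library 1 and 0.211 without library 2). ETFA and BCAT6 were not called, at log2 changes of 0.01 and 0.36.

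Outside this list, PDS1 and ALDH7B4 were among the falls with the smallest adjusted p. PDS1, the hydroxyphenylpyruvate dioxygenase, stands at the branch of tyrosine into breakdown or into vitamin E and plastoquinone. It had 68.7 and 80.3 cRPKM in sr45, against 197 and 189 cRPKM in Col0 (log2 change -1.36 ± 0.07, adjusted p = 1.41e-16). ALDH7B4, a stress-induced aldehyde dehydrogenase, had 19.8 and 17.2 cRPKM in sr45, against 62.5 and 62.8 cRPKM in Col0 (log2 change -1.77 ± 0.10, adjusted p = 3.1e-16). The genotypes did not overlap in either gene, but this was a condition for naming these falls.

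Sugar-repressed genes were lower as well, 10 of 13 tested, with 1 higher and a median log2 change of -1.31. STP1, the plasma membrane monosaccharide carrier that imports glucose, was the most highly expressed of them. It had 216 and 219.7 cRPKM in sr45, against 850.2 and 851 cRPKM in Col0, and the libraries of a genotype were nearly equal (log2 change -1.96 ± 0.08, adjusted p = 6.05e-20). STP14, a carrier for galactose, was lower too, with 10.7 and 14.5 cRPKM in sr45 and 49.5 and 47.1 cRPKM in Col0 (log2 change -1.89 ± 0.11). UGE1, an epimerase that interconverts UDP-glucose and UDP-galactose, had 72.8 and 67.0 cRPKM in sr45, against 217 and 209.9 cRPKM in Col0 (log2 change -1.61 ± 0.07, adjusted p = 7.84e-19). These 3 genes of sugar uptake and galactose use each fell at least 3.06-fold. STP14 and UGE1 were not members of the list.

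Among the other sugar-repressed genes, BXL2, a beta-xylosidase of the cell wall, had 27.9 and 32.8 cRPKM in sr45, against 74.2 and 79.1 cRPKM in Col0. MIOX1, which oxidises inositol towards wall sugars, had 4.89 and 2.95 cRPKM in sr45, against 16.5 and 16.1 cRPKM in Col0. DYL1, a marker of dormant buds, had 81.4 and 68.9 cRPKM in sr45, against 203 and 218 cRPKM in Col0. No sr45 library of these 3 genes reached the lower Col0 library, and their log2 changes were -1.31, -2.13 and -1.50. TPS10, a trehalose phosphate synthase-like protein of the class without known synthase activity, fell to 11.7 and 10.8 cRPKM in sr45, against 30.6 and 28.7 cRPKM in Col0. The exception was EXL1, which is named for its relation to the EXORDIUM growth protein and was higher, at 98.8 and 124 cRPKM in sr45 and 80.5 and 74.7 cRPKM in Col0 (log2 change 0.54 ± 0.09).

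**Figure D2:**
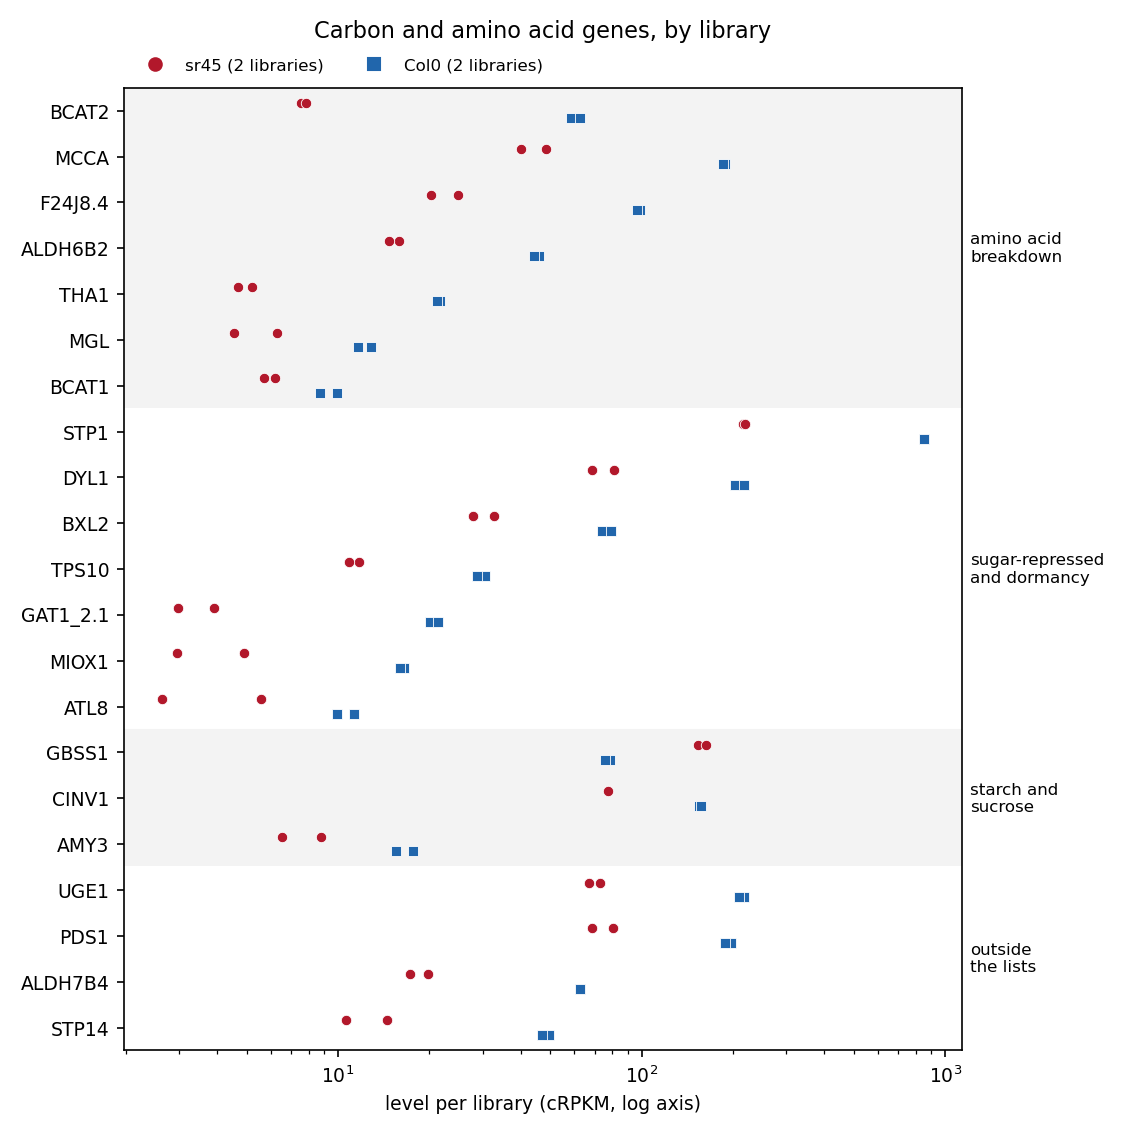
Level per library (cRPKM, log axis) of genes of amino acid breakdown, sugar repression and starch and sucrose metabolism, and of 4 genes outside these lists; each circle is 1 of 2 sr45 libraries and each square 1 of 2 Col0 libraries. In every gene drawn the circles and squares do not overlap, and only GBSS1 has the sr45 libraries above the Col0 libraries. The genes drawn are called genes, some chosen after their values were seen, so this pattern follows from the choice. EXL1 and ISA2, which were called higher, and ETFA and BCAT6, which were not called, are not drawn.

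Starch and sucrose genes moved in both directions, with 3 of 13 higher and 7 lower. Without Col0 library 1 these counts were 1 and 4, and without Col0 library 2 they were 2 and 4. GBSS1, the starch synthase that makes amylose, had 154 and 163 cRPKM in sr45, against 79.0 and 75.7 cRPKM in Col0 (log2 change 1.04 ± 0.07, adjusted p = 3.76e-14). The lower genes included enzymes that break starch or sucrose down. AMY3, a plastid alpha-amylase, had 6.55 and 8.81 cRPKM in sr45, against 17.7 and 15.6 cRPKM in Col0, and CINV1, a cytosolic invertase, had 77.5 and 77.6 cRPKM in sr45, against 155 and 157 cRPKM in Col0. GWD1, which phosphorylates starch so that it can be degraded, had a log2 change of -0.56 ± 0.10. For glycolysis and organic acids, 6 of 11 genes tested were higher and none lower, and 3 were called higher with either Col0 library left out. The strongest was mMDH1, a mitochondrial malate dehydrogenase, with 174 and 172 cRPKM in sr45, against 76.2 and 81.3 cRPKM in Col0 (log2 change 1.14 ± 0.07, adjusted p = 3.1e-15). PGK, a phosphoglycerate kinase, had 69.0 and 72.6 cRPKM in sr45, against 42.1 and 39.9 cRPKM in Col0.

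Sulfur assimilation held the change with the smallest adjusted p of all genes. APR2 encodes the main adenosine phosphosulfate reductase of leaves, which controls the entry of sulfate into cysteine. It had 137 and 150.4 cRPKM in sr45, against 28.8 and 30.9 cRPKM in Col0. Both sr45 libraries were over 4 times both Col0 libraries, and the log2 change was 2.28 ± 0.08 (adjusted p = 1.61e-21), a level 4.86-fold higher. SHM7, annotated as a serine hydroxymethyltransferase, had 29.6 and 33.2 cRPKM in sr45, against 9.09 and 8.54 cRPKM in Col0 (log2 change 1.84 ± 0.11, adjusted p = 2.99e-15). The sulfate transporters SULTR1;2 and SULTR2;2, which take up sulfate in roots and move it in the vasculature, had log2 changes of 0.98 ± 0.26 and 0.42 ± 0.15, and these calls were lost in 5 and 6 of the 11 other analyses.

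Glucosinolates are sulfur-rich defence compounds of the cabbage family, and 11 of 14 tested genes for their synthesis and breakdown were higher, with none lower and a median log2 change of 1.02. With a single library left out, 10 or 11 were higher. MYB51, a transcription factor that switches on the indole branch, had 9.28 and 12.8 cRPKM in sr45, against 6.40 and 4.31 cRPKM in Col0 (log2 change 1.05 ± 0.20). CYP79F1, which makes the first committed step from chain-elongated methionine, had 40.1 and 38.6 cRPKM in sr45, against 10.6 and 10.1 cRPKM in Col0 (log2 change 1.92 ± 0.12, adjusted p = 3.1e-15). Its neighbour and close relative CYP79F2 had 4.50 and 3.72 cRPKM in sr45, against 1.1 and 0.74 cRPKM in Col0. Because the CYP79F genes are alike in sequence, reads may be shared between them. CYP79F1 lies from 5608682 to 5612064 on chromosome 1, on the same arm and close to SR45.

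The later steps of glucosinolate synthesis rose with the first. UGT74B1, the glucosyltransferase of the core structure, had 28.4 and 26.2 cRPKM in sr45, against 11.9 and 10 cRPKM in Col0 (log2 change 1.30 ± 0.13). SOT17, a sulfotransferase that completes the core, had 13.3 and 12.7 cRPKM in sr45, against 5.58 and 5.17 cRPKM in Col0. FMOGS-OX3, which oxidises the side chain of methionine-derived glucosinolates, had 19.0 and 22.6 cRPKM in sr45, against 6.39 and 8.13 cRPKM in Col0 (log2 change 1.56 ± 0.17). In all 3 genes each sr45 library exceeded both Col0 libraries. FMOGS-OX1 and FMOGS-OX2 were also higher, whereas FMOGS-OX4 and FMOGS-OX5 were not called, at log2 changes of 0.23 and -0.35. ESP, which steers the breakdown of glucosinolates towards nitriles, had a log2 change of 0.83 ± 0.19, and MVP1 was not called (0.13).

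Phenolic and detoxification genes included further rises. Of the 5 phenylpropanoid genes tested, 4 were higher and none lower. 4CL1, the coenzyme A ligase that feeds lignin synthesis, had 83.1 and 83.6 cRPKM in sr45, against 37.97 and 36.8 cRPKM in Col0 (log2 change 1.16 ± 0.08, adjusted p = 2.59e-14). UGT78D1, which adds rhamnose to flavonols, had 34.7 cRPKM in both sr45 libraries, against 16.7 and 14.6 cRPKM in Col0 (log2 change 1.15 ± 0.10). CCR1, the first enzyme specific to lignin monomers, had a log2 change of 0.54 ± 0.07. ATMYBL2, a repressor of anthocyanin synthesis, fell to 76.1 and 86.6 cRPKM in sr45, against 186 and 176 cRPKM in Col0 (log2 change -1.14 ± 0.08). Of 18 glutathione transferases, 9 were higher and none lower, and 4 were higher with either Col0 library left out. GSTU17 had 165 and 177 cRPKM in sr45, against 73.9 and 79.0 cRPKM in Col0 (log2 change 1.18 ± 0.08, adjusted p = 5.18e-14).

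**Figure D3:**
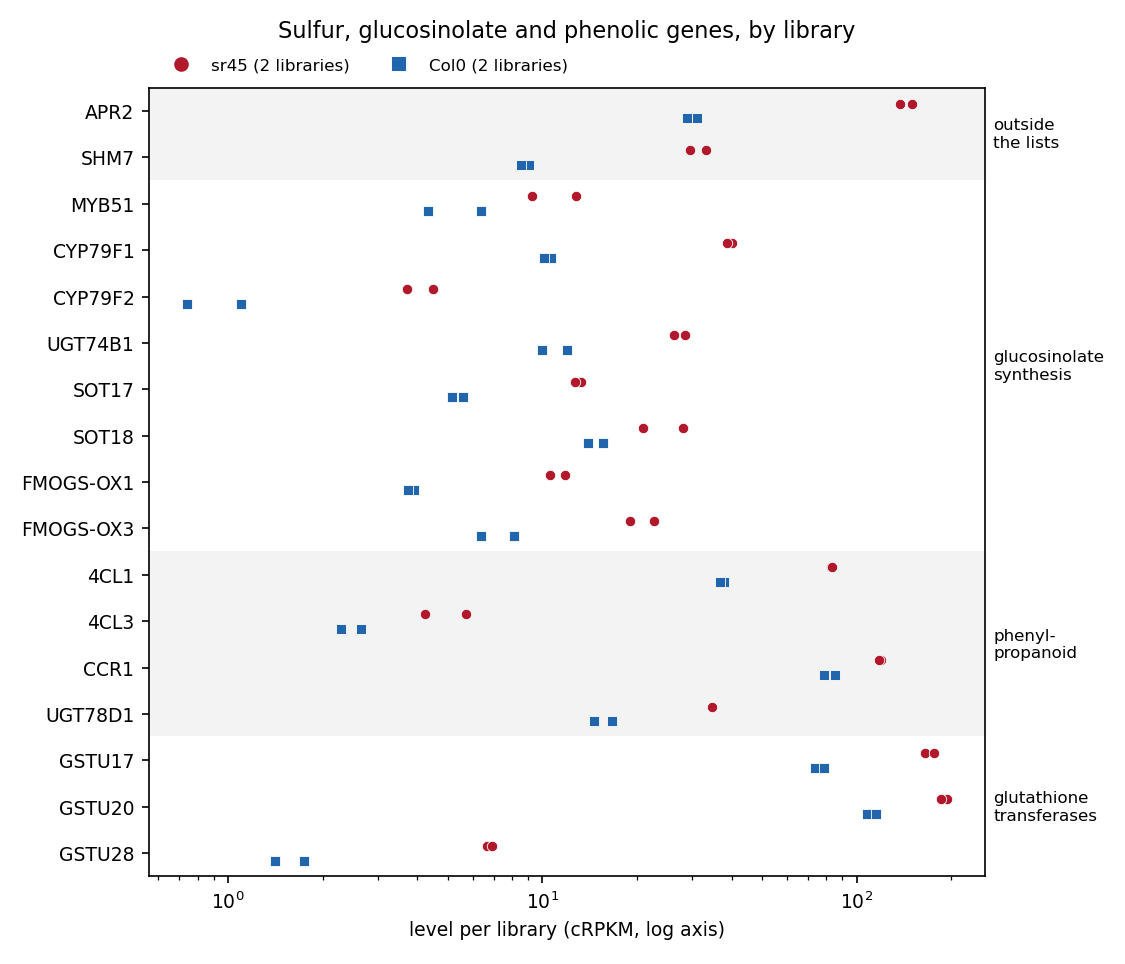
Level per library (cRPKM, log axis) of APR2 and SHM7 and of genes for glucosinolates, phenylpropanoids and glutathione transferases; each circle is 1 of 2 sr45 libraries and each square 1 of 2 Col0 libraries. In every gene drawn both sr45 libraries lie above both Col0 libraries. The genes were picked among those called higher, many after their values were seen, so this direction follows from the choice. FMOGS-OX4, FMOGS-OX5 and MVP1, which were not called, are not drawn.

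The levels of these genes in the other mutants can be set beside those above, though all 3 mutants are read against the same 2 Col0 libraries. For APR2, the sap18sr45 libraries had 84.98 and 87.2 cRPKM and the asap libraries 175 and 175.2 cRPKM, so that sr45 lay between them. The same order held for CYP79F1, with 35.0 and 30.9 cRPKM in sap18sr45 and 84.4 and 81.3 cRPKM in asap, although sr45 was near sap18sr45. STP1 had 281 and 272 cRPKM in sap18sr45 and 94.2 and 87.8 cRPKM in asap. For F24J8.4 the sap18sr45 libraries had 18.8 and 18.1 cRPKM and the asap libraries 16.5 and 14.1 cRPKM, all below both sr45 libraries. SR45 itself had 13.6 and 14.4 cRPKM in sap18sr45 and 6.23 and 3.85 cRPKM in asap.

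Clock and light genes were called in both directions, with 5 of 17 higher and 8 lower. PHYA, the far-red light receptor, had 35.4 and 46.0 cRPKM in sr45, against 75.9 and 74.9 cRPKM in Col0 (log2 change -0.87 ± 0.08, adjusted p = 9.14e-09). CRY2, a blue light receptor that promotes flowering, had 36.1 and 47.5 cRPKM in sr45, against 64.1 and 60.2 cRPKM in Col0. SPA4, a light signalling repressor that works with COP1, was higher instead, with 12.8 and 14.6 cRPKM in sr45 and 7.03 and 6.29 cRPKM in Col0 (log2 change 1.05 ± 0.14). BBX22 and BBX27, zinc finger proteins of the B-box family, had log2 changes of -1.12 and -0.57. The hour of sampling was not stated, and its part in these values was not tested.

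RVE7, a MYB-like protein related to the clock factor LHY, had 14.5 and 9.10 cRPKM in sr45, against 26.6 and 29.0 cRPKM in Col0 (log2 change -1.29 ± 0.20, adjusted p = 3.55e-06). It had 7.02 and 9.56 cRPKM in sap18sr45 and 21.7 and 24.1 cRPKM in asap. LHY itself had 115.5 and 132.3 cRPKM in sr45, against 52.3 and 51.7 cRPKM in Col0. Its levels were 101.7 and 96.9 cRPKM in sap18sr45 and 111.7 and 110.8 cRPKM in asap. LHY is known to bind the evening element AAAATATCT, and its part in the level of any gene with this element was not tested. The promoters of RVE7 and STP14, both lower in sr45, are shown because each holds this element, written in capitals, in the 100 bases before the annotated start (RefSeq TAIR10.1, minus strand of chromosome 1, at 6308244 to 6308343 for RVE7 and 29012097 to 29012196 for STP14).
RVE7: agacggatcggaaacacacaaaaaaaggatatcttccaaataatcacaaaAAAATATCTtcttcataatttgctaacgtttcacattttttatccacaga
STP14: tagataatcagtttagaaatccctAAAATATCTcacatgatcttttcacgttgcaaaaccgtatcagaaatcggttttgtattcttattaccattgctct
The element, searched on both strands in the 250 bases before the start, was present in 110 of the 4794 promoters of genes tested (2.29%). Of these 110 genes, 12 were higher in sr45 (10.9%) and 27 lower (24.5%), beside 18.7% and 19.2% of the genes without it. RVE7 and STP14 were picked by hand, and no promoter of the 12 higher genes with the element is shown. A match is a description of the sequence and not of binding.

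Cytosolic ribosomal protein genes were higher in 28 of 39 cases and lower in 1, with a median log2 change of 0.56, and 25 to 30 were higher when a single library was left out. RPL10A, a protein of the large subunit, had 679.5 and 694 cRPKM in sr45, against 438 and 453 cRPKM in Col0 (log2 change 0.63 ± 0.08). RPL37B, of the same subunit, had 659 and 570.2 cRPKM in sr45, against 396 and 409 cRPKM in Col0 (log2 change 0.61 ± 0.08). The genotypes did not overlap in either gene. The exception was the AT1G29970 copy of RPL18AA, with 35.9 and 41.8 cRPKM in sr45 and 67.7 and 65.4 cRPKM in Col0. AT1G29965, an overlapping entry of the same name on the same strand, did not follow it. That entry had 8.12 and 20.2 cRPKM in sr45, against 8.25 and 9.20 cRPKM in Col0. It was not called (log2 change 0.84 ± 0.49, adjusted p = 0.188). Ribosomal protein genes come in near-identical copies, between which counts may be divided. AT1G07930 and AT1G07940, which encode elongation factor subunit eEF1A, were higher too. AT1G07940 had 319 and 281 cRPKM in sr45 and 138 and 163 cRPKM in Col0. Among translation factors 13 of 32 were higher and 4 lower, while 5 were higher with either Col0 library left out and 1 or 2 lower.

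Promoters of plant ribosomal protein genes are known for the site II element, TGGGCC, and for the telo-box, AAACCCTA. The 100 bases before the start are printed for 3 genes higher in sr45 and for AT1G29970, the copy of RPL18AA that was lower. These stretches were picked by hand and do not show how site II is shared among higher and lower genes. In RefSeq TAIR10.1, chromosome 1, plus strand, they lie at 20962470 to 20962569 for RPL41E and 4888014 to 4888113 for RPL10A. On the minus strand they lie at 19476235 to 19476334 for RPL37B and 10501499 to 10501598 for RPL18AA. The overlapping entry AT1G29965 starts at 10499462, and the bases before that start are not shown. Capitals mark site II elements on either strand and, in RPL37B, also a telo-box and an I-box (GATAAG, here on the opposite strand).
RPL41E: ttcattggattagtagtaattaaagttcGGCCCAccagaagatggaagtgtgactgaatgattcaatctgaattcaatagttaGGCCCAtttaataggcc
RPL37B: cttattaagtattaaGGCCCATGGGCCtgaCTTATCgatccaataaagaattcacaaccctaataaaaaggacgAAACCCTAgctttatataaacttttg
RPL10A: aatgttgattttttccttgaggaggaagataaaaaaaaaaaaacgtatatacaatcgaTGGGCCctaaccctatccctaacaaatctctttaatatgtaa
RPL18AA: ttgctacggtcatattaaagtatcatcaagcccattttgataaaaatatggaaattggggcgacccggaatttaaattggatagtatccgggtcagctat
In RPL37B a site II element on each strand stands side by side. In the 250 bases before the start, site II was present in 21 of 39 ribosomal protein genes, beside 16.9% of the 4794 promoters, and the telo-box in 5 of 39, beside 3.25%. As 28 of the 39 genes were higher in sr45, some higher genes lacked site II. Of all genes tested with site II, 21.6% were higher in sr45 and 15.4% lower, beside 17.8% and 20.1% of those without it. For the 156 genes with the telo-box the shares were 21.8% higher and 11.5% lower, beside 18.4% and 19.6% of those without it. Ribosomal protein genes are counted in these shares, which are thus not separate from the result above.

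Auxin response genes were higher in 13 of 28 cases and lower in 1, and the number higher was 5 without Col0 library 1, 6 without Col0 library 2, 8 without sr45 library 2 and 6 with DESeq2. SAUR63, which promotes stretching of cells, had 45.6 and 57.5 cRPKM in sr45, against 20.3 and 22.8 cRPKM in Col0 (log2 change 1.30 ± 0.26). IAA6, an auxin-induced repressor, had 8.33 and 11.9 cRPKM in sr45, against 2.83 and 3.51 cRPKM in Col0 (log2 change 1.74 ± 0.30). ARF6, a factor that activates auxin targets, was the single gene of the list called lower, with 4.26 and 4.68 cRPKM in sr45, against 9.20 and 10.7 cRPKM in Col0. Of the 28 genes, 8 had a negative log2 change, and 3 were called lower with limma on cRPKM. SAUR genes of this cluster resemble each other, so their counts may be shared. Of 9 enzymes that loosen the cell wall, 5 were higher and 1 lower, and the lower one, XTH4, was not called with either Col0 library left out. EXPA1, an expansin, had 205 and 213 cRPKM in sr45, against 131 and 134 cRPKM in Col0 (log2 change 0.66 ± 0.07), and XTH17, a xyloglucan transferase, had 18.6 and 22.9 cRPKM in sr45, against 7.59 and 10.8 cRPKM in Col0.

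Nutrient uptake genes were higher in 7 of 11 cases and lower in 1, a count that was 1 without Col0 library 1, 3 without Col0 library 2 and 4 without sr45 library 2. AMT1-2, an ammonium transporter of the root, had 43.6 and 36.1 cRPKM in sr45, against 14.2 and 12.6 cRPKM in Col0 (log2 change 1.55 ± 0.11, adjusted p = 1.18e-13). FRO3, a mitochondrial ferric reductase, fell to 15.8 and 15.3 cRPKM in sr45, against 35.9 and 35.1 cRPKM in Col0 (log2 change -1.19 ± 0.10). Because some of these genes are root genes, the marker lists bear on them. The summed level of the root markers was 3.85 and 5.03 cRPKM in sr45, against 3.19 and 2.66 cRPKM in Col0, and the 1 root marker with enough counts for the test was not called. The seed storage genes CRB and CRD had no counts in either genotype. None of 6 guard cell markers was called. Of 3 vascular markers XCP2 was higher and SUC2 lower, calls lost in 6 and 8 of the 11 other analyses. Mesophyll markers were called in both directions. Among them RBCS-1A and LHCB1.2 were higher, at log2 changes of 0.51 and 0.29, and LHCB2.1 and LHCB2.2 lower, at -0.67 and -0.60. The meristem marker CLV1 was lower, at -0.73. The part of tissue make-up in these results was not tested.

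Immune receptor genes of the leucine-rich repeat class were higher in 15 of 39 cases and lower in 6, with 9 higher without Col0 library 1 and 2 lower without Col0 library 2. TIR, a short protein with the signalling domain of this class, had 165 and 162 cRPKM in sr45, against 49.8 and 49.3 cRPKM in Col0 (log2 change 1.72 ± 0.11, adjusted p = 6.5e-15). WRR4, a receptor for white rust, had 31.3 and 30.1 cRPKM in sr45, against 17.9 and 17.8 cRPKM in Col0. The genotypes were apart in both, which for TIR was a condition of its choice. F-box and kelch proteins leaned the other way, with 2 of 53 higher and 13 lower, though 7 were lower without Col0 library 2. Among them AT1G15670, a kelch repeat F-box protein, had 10.1 and 12.1 cRPKM in sr45, against 27.2 and 29.0 cRPKM in Col0 (log2 change -1.30 ± 0.13).

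**Figure D4:**
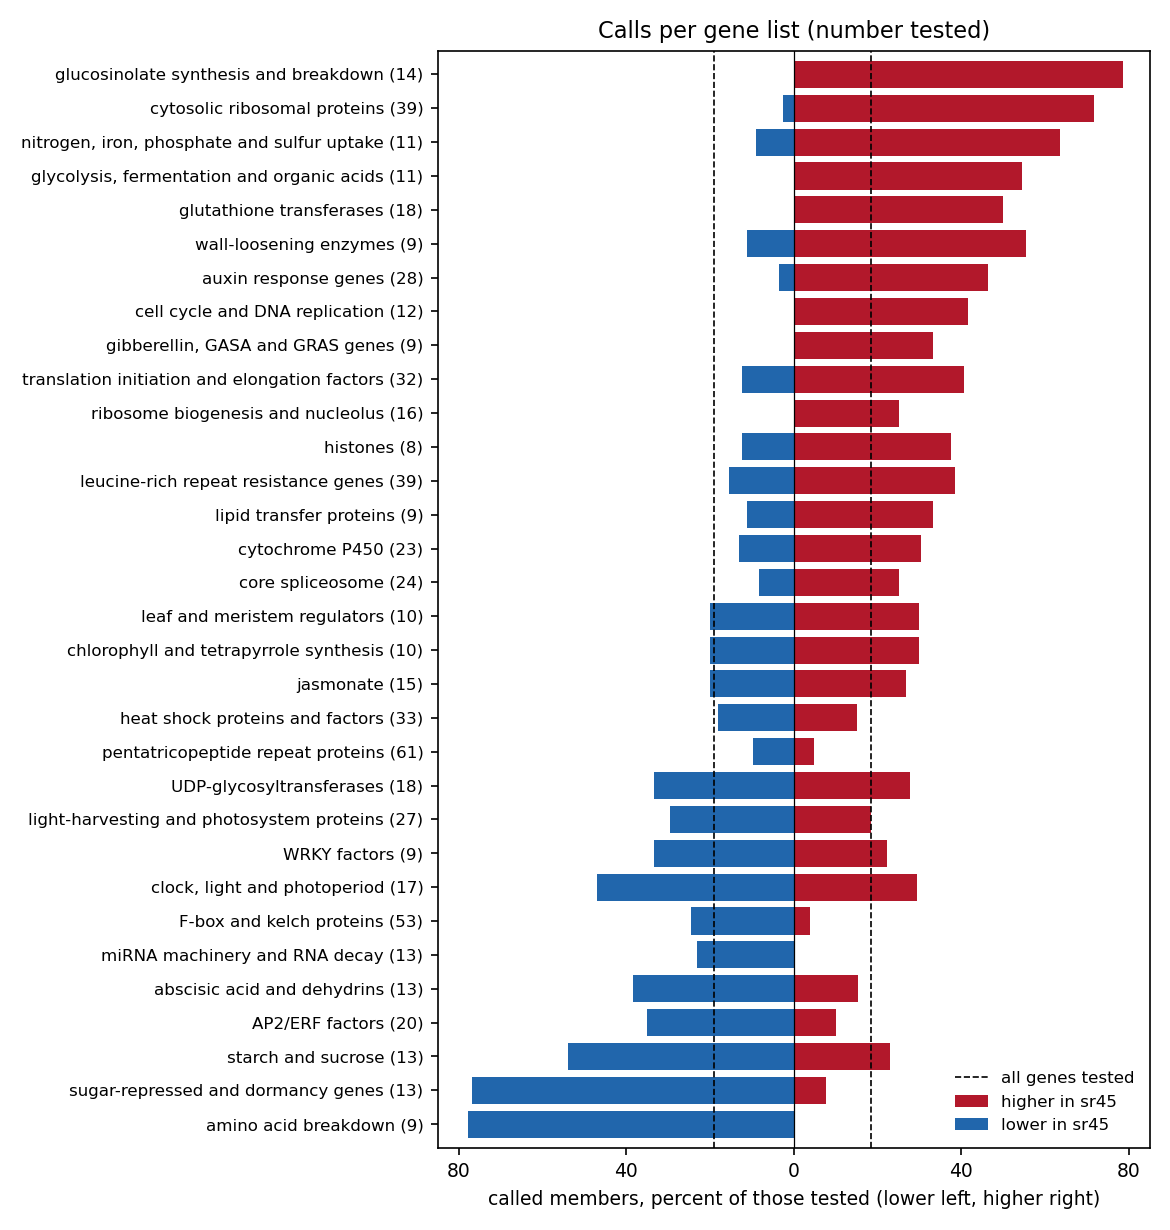
Percent of the tested members of each gene list with at least 8 tested that were higher in sr45 (red, to the right) or lower in sr45 (blue, to the left), with the number tested in parentheses; dashed lines mark the share over all genes tested, 18.5% higher and 19.1% lower. Of the lists drawn, glucosinolate and ribosomal protein genes reach farthest to the right, and amino acid breakdown and sugar-repressed genes farthest to the left. Lists and members were chosen with earlier results of these data known, so part of this contrast may follow from the choice.

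RNA-binding proteins and stress genes showed single strong members rather than a common direction. Of 24 core spliceosome genes, 6 were higher and 2 lower, and 3 were higher with either Col0 library left out. UBP1A and RBP45B, related binders of uridine-rich RNA, moved apart, with 74.2 and 68.8 cRPKM in sr45 and 51.9 and 53.3 cRPKM in Col0 for UBP1A (log2 change 0.45 ± 0.08), and 108 and 97.1 cRPKM in sr45 and 159.5 and 156 cRPKM in Col0 for RBP45B (log2 change -0.62 ± 0.07). Heat shock proteins and factors included 5 of 33 higher and 6 lower, shares near or below the background, and 2 were higher with either Col0 library left out, with 3 lower without Col0 library 1. ATJ8, a small chaperone of the DnaJ class in the chloroplast, had 344 and 334 cRPKM in sr45, against 788 and 748 cRPKM in Col0 (log2 change -1.18 ± 0.08, adjusted p = 4.17e-14). AT1G72416, of the same class, had 1.61 and 2.34 cRPKM in sr45, against 13.8 and 14.9 cRPKM in Col0. Its levels were 11.5 and 12.5 cRPKM in sap18sr45 and 2.52 and 4.16 cRPKM in asap. Light-harvesting and photosystem genes were higher in 5 of 27 cases and lower in 8. Across fits with 1 library left out, 2 (without Col0 library 1) to 8 (without sr45 library 1) were higher, and 2 (without Col0 library 2) to 11 (without sr45 library 2) were lower.

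Short genes were called higher more often than long ones. When the genes were divided into 5 equal bins of mappable length, 27.0% of the shortest were higher in sr45 and 12.8% lower, whereas 16.0% of the longest were higher and 22.5% lower. Without the 36 ribosomal protein genes in it, the shortest bin still had 25.3% higher and 13.2% lower. Across 4946 genes, which are not independent replicates, the Spearman correlation of length with the log2 change was -0.094. It was -0.088 with the difference between sr45 library 1 and library 2, and 0.049 with the difference between Col0 library 1 and library 2. A relation of similar size thus stood between the 2 sr45 libraries, and the part of library preparation in the length pattern was not tested.

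**Figure D5:**
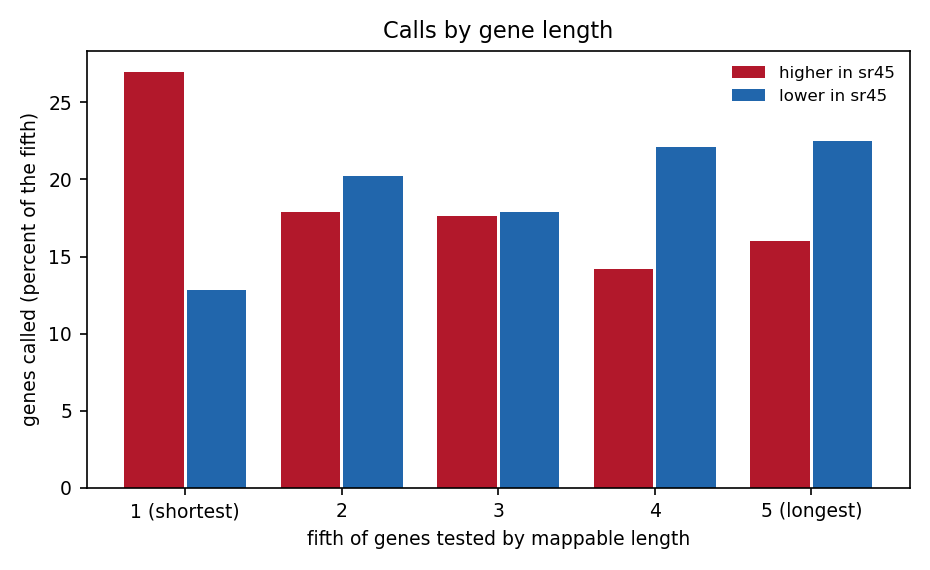
Percent of genes called higher in sr45 (red) or lower in sr45 (blue) in 5 bins of mappable gene length, from the shortest to the longest. The share higher is 27.0% in the shortest bin and 16.0% in the longest, and the share lower is 12.8% and 22.5%.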

How the data were processed

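Per the labels, RNA of Arabidopsis thaliana seedlings was made into stranded TruSeq mRNA libraries and sequenced. The authors counted reads per gene with vast-tools 2.5 on TAIR 10 and deposited raw read counts, used for every test. They also deposited cRPKM (an RPKM corrected for mappable length), used for levels and the limma alternatives. Strand use in counting was not stated. The table held 9998 loci, 462 of them without values, on chromosomes 1 and 2 only. One line naming no locus, at most 0.00281% of a library's counts, was left out.

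Counts of the 4 libraries were filtered with filterByExpr, scaled by TMM and tested with edgeR 4.0.16 in R 4.3.3 (quasi-likelihood test, 2 residual degrees of freedom, Benjamini-Hochberg threshold 0.05). SE is the absolute log2 change divided by the square root of F. Alternatives used all 8 libraries, DESeq2 1.42.0, limma 3.58.1 (quantile-normalized voom, or log2 of cRPKM plus 0.5 or 0.1), no filter, a replicate block, the study's call rule (2-fold in each pair of libraries, 50 counts, cRPKM over 5), or 1 library fewer. Depth set precision: 3 counts equal 2.32 and 1.3 CPM in sr45 and 0.74 and 1.1 CPM in Col0. The code was tested on simulated data.

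The genes named were SR45, 3 loci on either side of it, and up to 2 called genes per list and direction. They also included the 12 rises and 12 falls with the smallest adjusted p among called genes with a symbol. Each of these needed an absolute log2 change of at least 1. Each also needed both sr45 libraries outside the range of the Col0 libraries in cRPKM, so their separation was built in. The 6 called genes with a symbol and the largest difference of mean cRPKM in each direction were added. The members and lists were chosen with earlier results of these data known. Further genes were named, and 6 false pattern matches removed from lists, after values were seen. Names, coordinates and promoters came from RefSeq TAIR10.1, which matched 98.9% of loci with values.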

Additional observations from a re-analysis of the deposited data

How the results depend on the processing

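The number of genes called depended on the test and on which libraries were kept. DESeq2 called 1136 genes, 577 higher and 559 lower in sr45, and 1134 of them were also called by edgeR. Leaving out 1 library at a time gave 1046 to 1990 calls, 498 to 975 higher and 548 to 1015 lower. Without Col0 library 1 the calls numbered 1046 (498 higher, 548 lower), and without Col0 library 2 they numbered 1074 (511 higher, 563 lower). In these fits the lone library is assumed to vary like the other genotype. With a Col0 library left out, the spread thus comes from the sr45 pair alone, the more variable one (10.5%, against 3.53% in Col0). The study's rule gave 137 genes, 53 higher and 84 lower. With all 8 libraries, no filter, voom or limma on cRPKM the count stayed within 1.5 times. The replicate block gave 1714 calls, and the deviations of same-numbered libraries were not correlated (-0.003), so numbers were not taken to pair libraries. The SR45 transcript in sr45 vs Col0 stayed lower in every fit, at -1.97 with the replicate block. Of 183 named genes called, 138 were called under all 11 alternatives with a test, and the cause of the other losses was not tested. PSBR alone reversed, at 0.037 with quantile-normalized voom (adjusted p = 0.449). Depth limits calls for genes at a few cRPKM in sr45 library 1.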

Other observations

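Some groups outside the comparisons above also held strong single changes. Of 13 abscisic acid and dehydrin genes, 2 were higher and 5 lower in sr45 (1 higher without Col0 library 1, 3 higher without sr45 library 2). ERD14, a dehydrin that protects membranes and proteins during drying, had 136 cRPKM in both sr45 libraries, against 217 and 208 cRPKM in Col0 (log2 change -0.64 ± 0.07). Jasmonate genes were called higher in 4 of 15 cases and lower in 3, with 1 lower without Col0 library 2. LOX4, a lipoxygenase of jasmonate synthesis, had 3.10 and 2.41 cRPKM in sr45, against 0.49 and 1.14 cRPKM in Col0, and CLH1, a chlorophyllase induced by jasmonate, had 43.7 and 46.0 cRPKM in sr45, against 16.4 and 20.6 cRPKM in Col0. The AP2/ERF factors were higher in 2 of 20 cases and lower in 7 (5 higher without sr45 library 1, 4 lower without Col0 library 2), among them RAP2-1, with 4.72 and 4.00 cRPKM in sr45 and 12.3 and 12.4 cRPKM in Col0. Pentatricopeptide repeat genes, which act in organelle RNA processing, were seldom called, with 3 of 61 higher and 6 lower, though 9 were higher without sr45 library 2 and 3 lower with either Col0 library left out.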
